A study of Rattus norvegicus with 9 samples.

Results

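Fatty acid oxidation is the main source of ATP in the adult heart, and 10 genes of this pathway were followed in rat ventricle before birth, in the sham-operated adult and in the pressure-overloaded adult. The genes were taken by name, with earlier results of these data known: Cpt2, Slc25a20, Acadl, Acadm, Acads, Hadh, Acaa2, Etfa, Mlycd and Esrra. All 10 were found, among 14144 loci that were tested. In the ventricle at embryonic day 18 each of the 10 transcripts stood at between 9.35% (Acadm) and 23.5% (Esrra) of its mean level in sham-operated adult left ventricle. After transverse aortic constriction the means stood at between 74.5% (Acaa2) and 98.4% (Acads) of sham, and none of the 10 passed the test.

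Long-chain fatty acids enter the mitochondrial matrix as carnitine esters, and are then shortened in repeated cycles of dehydrogenation, hydration, a second dehydrogenation and thiolysis. The first dehydrogenation hands electrons to the electron transfer flavoprotein and the second makes NADH. Malonyl-CoA holds back the entry step, and nuclear receptors such as the estrogen-related receptors and the PPARs control many genes of the pathway. The fetal heart lives at low oxygen and draws largely on glucose and lactate, and the pathway is known to mature around birth. A partial return toward fetal fuel use has often been described in overloaded hearts.

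All animals were Sprague-Dawley rats. In the TAC group, adult left ventricle was taken after surgical narrowing of the aortic arch (transverse aortic constriction); in the sham group, adults had the surgery but no narrowing. Unoperated ventricle of embryonic day 18 made up the fetal group, whose titles count litters. Each group held 3 libraries; the labels do not say whether an adult library was a single animal or a pool, nor how long after surgery the tissue was taken, so p-values measure the spread between these libraries, which may be technical. Trizol was used for fetal RNA and a Qiagen column kit for fibrous tissue for adult RNA, so that stage, heart region and isolation method cannot be told apart.

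Levels are FPKM, fragments per kilobase of transcript scaled to sequencing depth, rescaled to one scale for the 9 libraries. Because they are per length, they can be set side by side between genes. Differences are in log2(rescaled FPKM + 1), and a gene was called where the Benjamini-Hochberg adjusted p of limma over all tested loci was below 0.05. The libraries held an implied 6.37 to 25.75 fragments in units of 1000000, and fewest in TAC. A member's value rested on at least 701 implied fragments (Esrra in a TAC library) and at most 44802 (Acadl in a sham library), and in fetal libraries on 762 to 10498. The authors' confidence bounds lay between 0.962% and 17.9% of the value to each side, and cover counting and assignment of fragments only. In bulk tissue, fewer cells of a type and less RNA per cell cannot be told apart.

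Replicate 1 differed from replicates 2 and 3 in all 3 groups in a technical property, the length of the shortest assembled feature (43 nt against 63 nt). Replicates 2 and 3 alone gave the same 10 calls for fetal against sham (median log2 difference -2.62, adjusted p from 0.000242 to 0.00167) and 0 calls for TAC against sham. Replicate 1 has a single library per group and no test; there, too, fetal was below sham for 10 of 10 genes.

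**Figure D1:**
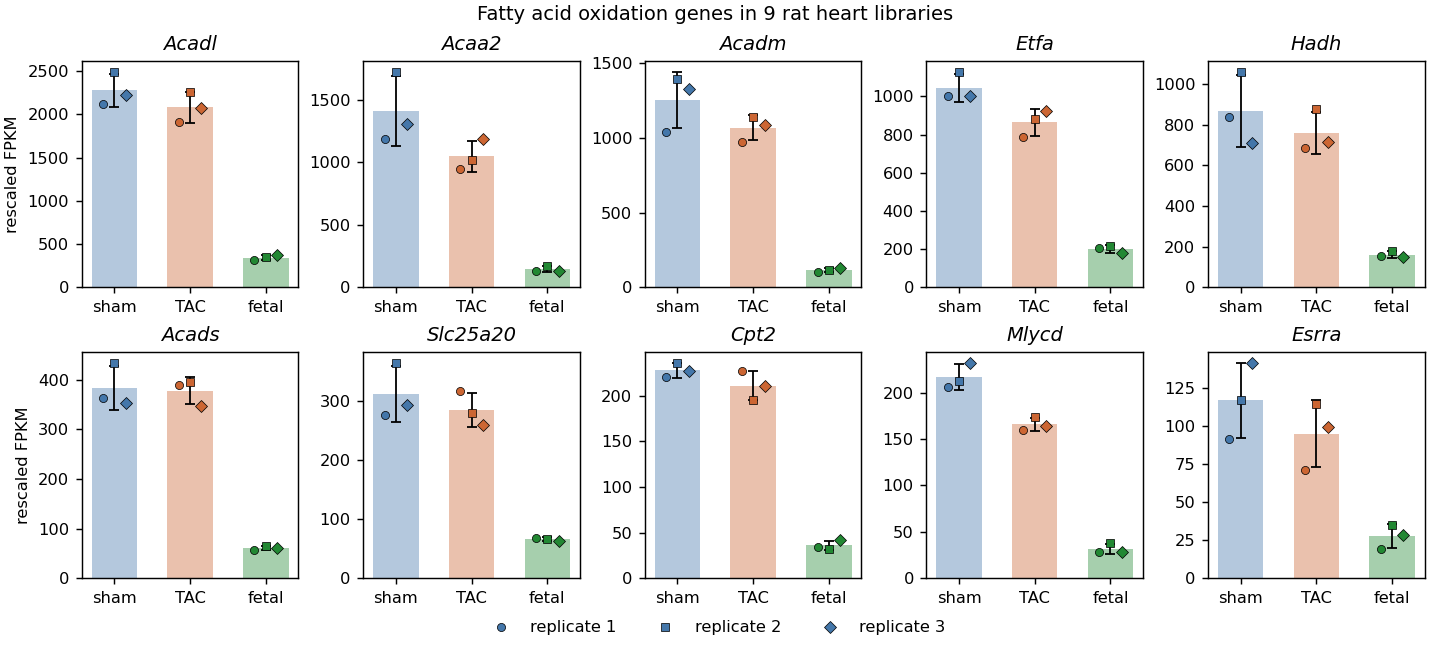
Rescaled FPKM of the 10 genes in each library, with bars for the group mean (n = 3) and error bars for 1 SD; the marker shape gives the replicate number. In all 10 panels the fetal libraries lie below the sham and TAC libraries, and the 2 adult groups lie close to each other.

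The genes kept a wide range of levels in every group. In sham, Acadl had the highest mean (2276 ± 192 rescaled FPKM, SD, n = 3), and Esrra the lowest (117 ± 24.9). Between them came Acaa2, Acadm, Etfa, Hadh, Acads, Slc25a20, Cpt2 and Mlycd. In this order the libraries of Acaa2 and Acadm, of Acadm and Etfa, of Etfa and Hadh, of Acads and Slc25a20, and of Cpt2 and Mlycd overlapped. Acadl was also first in TAC and in fetal, and Cpt2, Mlycd and Esrra were the last in all 3 groups. In fetal libraries Etfa moved from the fourth place to the second and Hadh from the fifth to the third, while Acadm stood in the third place in sham and in the fifth in fetal.

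The carnitine shuttle brings long-chain acyl groups across the inner mitochondrial membrane. Slc25a20 (rn4 8:113715210-113737063), the carnitine-acylcarnitine exchanger of that membrane, measured 277, 365 and 293 rescaled FPKM in sham replicates 1 to 3, 317, 280 and 259 in TAC, and 68.7, 67.1 and 62.2 in fetal. The adult groups overlapped and the fetal libraries lay apart below them. The fetal mean was 4.72-fold lower than sham, a log2 difference of -2.21 (SE 0.145, adjusted p = 1.10e-05). Cpt2 (rn4 5:129007684-129025544), which returns the acyl group from carnitine to CoA on the matrix side, measured 221, 237 and 227 in sham, 227, 195 and 211 in TAC, and 33.8, 32.0 and 41.9 in fetal. Again only the fetal libraries stood apart, 6.35-fold below sham in the mean (log2 difference -2.64, SE 0.134, adjusted p = 3.81e-06).

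The acyl-CoA dehydrogenases carry out the first oxidation, each for its own range of chain lengths. Acadl (rn4 9:65613129-65651831), the long-chain enzyme, measured 2118, 2489 and 2222 in sham, 1907, 2256 and 2071 in TAC, and 312, 354 and 370 in fetal. Its fetal mean was 6.59-fold below sham (log2 difference -2.72, SE 0.170, adjusted p = 8.98e-06). Even so, fetal Acadl was above the adult level of Slc25a20 or Cpt2 in the mean. Acadm (rn4 2:251866644-251890898), the medium-chain enzyme and a classical target of PPARα and the estrogen-related receptors, measured 1038, 1394 and 1327 in sham, 975, 1139 and 1090 in TAC, and 104, 118 and 129 in fetal. The fetal mean of 117 ± 12.9 against 1253 ± 189 in sham (SD, n = 3) made a 10.7-fold difference, the widest of the 10 genes (log2 difference -3.40, SE 0.169, adjusted p = 3.72e-06). Acads (rn4 12:42765264-42774528), the short-chain enzyme, measured 363, 435 and 354 in sham, 390, 396 and 347 in TAC, and 55.9, 64.7 and 61.2 in fetal. Here the adult groups were closest (means of 384 and 378), while the fetal mean was 6.33-fold below sham (log2 difference -2.64, SE 0.133, adjusted p = 3.81e-06).

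Hadh and Acaa2 act later in the cycle. Hadh (rn4 2:228698544-228751699), the short-chain 3-hydroxyacyl-CoA dehydrogenase that makes NADH, measured 836, 1059 and 709 in sham, 687, 877 and 715 in TAC, and 153, 180 and 150 in fetal. Its adult groups overlapped, and its fetal mean was 5.39-fold below sham (log2 difference -2.41, SE 0.189, adjusted p = 2.54e-05). Acaa2 (rn4 18:71587258-71632610), the mitochondrial thiolase that splits off acetyl-CoA, measured 1187, 1721 and 1308 in sham, 943, 1014 and 1183 in TAC, and 129, 172 and 133 in fetal. The fetal mean was 9.72-fold below sham, the second widest difference (log2 -3.27, SE 0.199, adjusted p = 7.97e-06). In TAC the highest Acaa2 library, 1183, came just under the lowest sham library, 1187.

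Etfa (rn4 8:59013798-59072026), the alpha subunit of the electron transfer flavoprotein that takes electrons from the acyl-CoA dehydrogenases, measured 999, 1128 and 1001 in sham, 788, 879 and 923 in TAC, and 205, 218 and 178 in fetal. All 3 TAC libraries were below all 3 sham libraries, and the fetal libraries were far below both. The fetal mean was 5.20-fold below sham (log2 difference -2.38, SE 0.147, adjusted p = 8.56e-06).

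Mlycd and Esrra control the pathway rather than carry it out. Mlycd (rn4 19:49637117-49653015), malonyl-CoA decarboxylase, which removes the inhibitor of the entry step, measured 206, 213 and 233 in sham, 160, 174 and 164 in TAC, and 28.1, 37.4 and 28.6 in fetal. The 3 groups did not overlap at any point, with sham highest and fetal lowest, and the fetal mean was 6.92-fold below sham (log2 difference -2.76, SE 0.137, adjusted p = 3.74e-06). Esrra (rn4 1:209587681-209597753), the nuclear receptor ERRα, measured 91.6, 117 and 141 in sham, 71.1, 114 and 99.3 in TAC, and 19.2, 34.7 and 28.4 in fetal. It spread most between the libraries of a group and showed the narrowest fetal difference, 4.26-fold (log2 -2.07, SE 0.267, adjusted p = 0.000386). The Esrra span shares 47 nt with a neighbouring locus that has no symbol and measured 79.2 to 132 in the 9 libraries, and the libraries do not mark strand. The Mlycd span overlaps that of Necab2, which measured at most 0.410.

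Fetal ventricle was thus below sham for 10 of 10 genes by the test, where 23.1% of all tested loci were called lower. The fetal libraries of 10 of 10 did not overlap sham on the lower side, where 28.8% of all loci did so. As the 10 were chosen with earlier results of these data known, the counts describe these genes and do not test the pathway. The median of the 10 log2 differences was -2.64, and that of all tested loci was 0.04. Ranked from the most negative difference, the 10 genes took places between 207 (Acadm) and 743 (Esrra) of 14144. Against TAC the fetal libraries were lower for 10 of 10 genes as well, where 22.9% of all loci were called lower. Those differences ran from -3.18 for Acadm to -1.77 for Esrra, with a median of -2.45 and adjusted p from 4.11e-06 to 0.000921.

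With every library scaled to the same total, or by its upper quartile, the median of all loci moved to 0.18 or 0.22 in fetal against sham, and to 0.24 or 0.27 in fetal against TAC. For fetal against sham, 49.3% of the called loci were higher under the scaling used here and 59.8% under upper-quartile scaling. For fetal against TAC the share was 49.9% here, 61.3% with equal totals and 63.8% by the upper quartile. The 10 genes stayed called lower under both scalings, with medians of -2.49 and -2.45 against sham.

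Markers of cell types and of proliferation were read in the same fit of fetal against sham, where 22.5% of all tested loci were called higher and 23.1% lower. Of the cardiomyocyte markers, 5 of 22 had a symbol, and their summed level was 44910 to 50000 rescaled FPKM in sham, 46110 to 53090 in TAC, and 17680 to 141700 in fetal, where 1 was called higher and 2 lower. Myoglobin (Mb), the oxygen store of muscle, measured 18880 to 25210 in sham and 660 to 1502 in fetal; cardiac actin (Actc1) measured 21320 to 24550 in sham and 14260, 137600 and 19190 in fetal replicates 1 to 3, and at least 21300 in TAC. Proliferation genes were called higher in fetal for 10 of 10 measured, with sums of 767 to 983 against 65.5 to 83.3 in sham. Erythroid markers were called higher for 3 of 6 and summed to 17320 to 27620 in fetal against 5095 to 12730 in sham. Macrophage markers were called lower for 8 of 9 (68.6 to 75.5 against 305 to 552). Fibroblast markers were called lower for 8 of 11 and higher for 2 (1228 to 1586 against 1710 to 2491). Endothelial markers were called lower for 3 of 6 (131 to 232 against 224 to 342). Smooth muscle markers were called higher for 2 and lower for 1 of 7, shares near those of all loci. Their summed levels overlapped (2298 to 2839 against 2123 to 2695), but joined opposite differences. The lower gene was Des (2139 ± 178 in sham, 692 ± 178 in fetal). The higher ones were Myl9 (90.7 ± 30.7 and 1618 ± 214) and Cnn1 (5.17 ± 6.74 and 85.2 ± 8.05). Adipocyte markers were called lower for 3 of 3 tested (127 to 253 against 948 to 1146). The sums came mostly from Fabp4, which endothelium also makes, with a log2 difference of -2.14. The estimates of Pnpla2 (-3.36) and Cfd (-3.29) lay further below 0. Ucp1, the brown fat marker, was listed at 0 in all adult libraries. The part of the marker differences in the fetal difference of the 10 genes was not tested. Between TAC and sham, 0 genes of these 8 marker lists were called by limma.

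**Figure D2:**
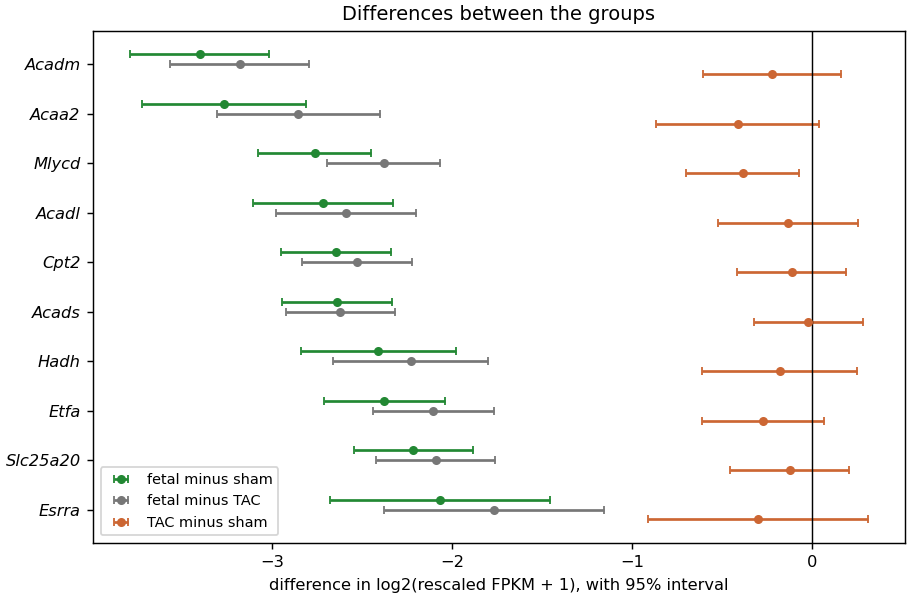
Differences between groups in log2(rescaled FPKM + 1) for the 10 genes, from the fit on all loci, with 95% intervals. Fetal minus sham and fetal minus TAC lie below 0 for every gene, and TAC minus sham lies near 0, with an interval that leaves out 0 for Mlycd alone.

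Constriction against sham asks whether overload moves the pathway toward its fetal level. None of the 10 genes was called by limma (adjusted p = 1 for each), where 0.00707% of all loci were called lower. At an unadjusted p below 0.05 there was 1 gene, Mlycd, with a log2 difference of -0.38 (95% interval -0.70 to -0.07, unadjusted p = 0.0222 in the limma fit, no exact test), or 76.5% of the sham mean. Mlycd, Etfa and Acaa2 had TAC libraries that lay wholly below sham, 3 of 10 genes, where 4.57% of all loci did. Acaa2 stood at 74.5% of sham (log2 difference -0.41, 95% interval -0.87 to 0.04) and Etfa at 82.8% (-0.27, interval -0.61 to 0.06).

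All 10 estimates were below 0, as were 51.0% of those of all loci, and the median of the 10 was -0.20 against -0.01 for all loci. The genes share libraries and are not replicates of the operation. By same-numbered libraries TAC was below sham for 7 of 10 genes in replicate 1, 10 of 10 in replicate 2 and 9 of 10 in replicate 3. Acads, Cpt2 and Slc25a20 were the exceptions in replicate 1, and Hadh in replicate 3. Acads lay nearest to 0 with -0.02 (95% interval -0.32 to 0.28), and became 0.04 without TAC replicate 3 and 0.07 without sham replicate 2. Over the 10 genes the 95% intervals reached from -0.91 to 0.31 (both for Esrra), so that a fall of the fetal size, -2.07 or more in log2, lay outside each of them. Over all loci, 2 were called between TAC and sham by limma, and 608 had an unadjusted p below 0.05. Those 608 are 4.30% of the tested loci, a share no larger than the threshold itself. The absence of calls among the 10 genes was thus shared by nearly all loci. Each pair of comparisons shares a group of libraries, so their values are given side by side only.

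The fold between the sham and fetal means ran from 4.26 (Esrra) to 10.7 (Acadm), and a ratio of 2 genes within a library does not depend on its scale. Of 7 ratios, 5 had fetal libraries apart from sham, and each of these 5 gave p = 0.1 in an exact two-sided permutation test over 20 arrangements, the smallest p that 3 against 3 can give (adjusted p = 0.14 over the 7 ratios). This test therefore cannot show that the factors differ. All of these 5 but Hadh to Acaa2 contain Acadm, so they are not separate findings. Medium-chain to long-chain dehydrogenase, Acadm to Acadl, measured 0.490, 0.560 and 0.597 in sham, 0.511, 0.505 and 0.526 in TAC, and 0.333, 0.334 and 0.350 in fetal. Acadm to Acads was 3.27 ± 0.449 in sham and 1.93 ± 0.157 in fetal (SD, n = 3). Acadm thus stood lower against both of the other dehydrogenases in the fetal libraries, with log2 differences of -0.69 and -0.75. Acads to Acadl, in contrast, measured 0.172, 0.175 and 0.159 in sham and 0.179, 0.183 and 0.166 in fetal, which overlap (log2 difference 0.06, p = 0.4 by the exact permutation test).

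Etfa to Acadm measured 0.962, 0.809 and 0.754 in sham, 0.808, 0.772 and 0.847 in TAC, and 1.97, 1.84 and 1.38 in fetal. More Etfa than Acadm transcript per length was therefore found in the 3 fetal libraries, and less in the 6 adult libraries. The 3-hydroxyacyl dehydrogenase to thiolase ratio, Hadh to Acaa2, lay on both sides of 1 in the same way, at 0.542 to 0.704 in sham and 1.05 to 1.19 in fetal. The receptor to target ratio, Esrra to Acadm, was 0.0839 to 0.107 in sham and 0.185 to 0.293 in fetal, or 2.47-fold higher by the mean log2 ratio. Cpt2 to Slc25a20, the pair of the carnitine shuttle, overlapped between fetal (0.478 to 0.675) and sham (0.648 to 0.796), with p = 0.2 in the exact permutation test. Between TAC and sham all 7 ratios overlapped, with exact permutation p from 0.3 to 1.

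**Figure D3:**
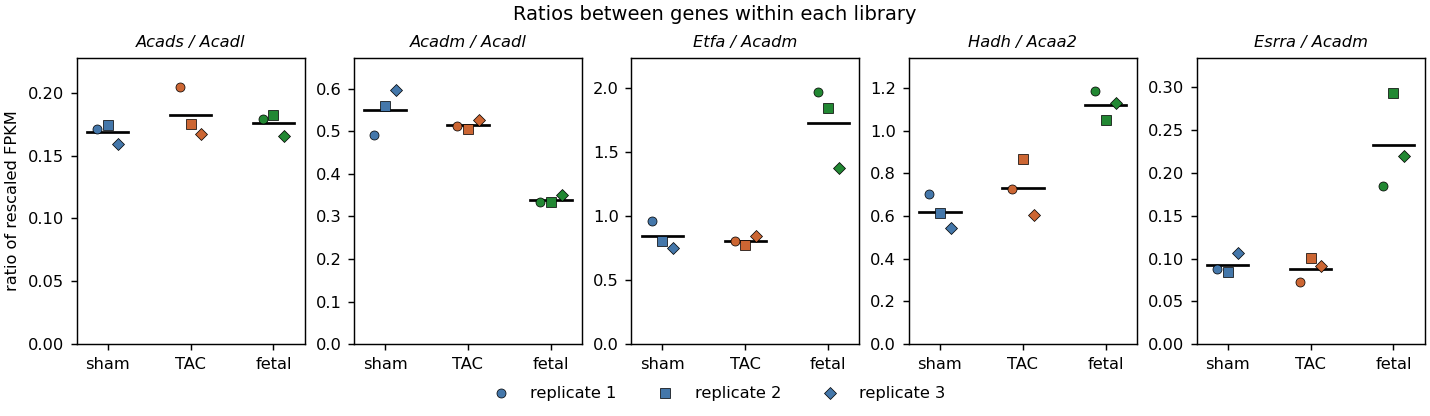
Ratios of rescaled FPKM between 2 genes in the same library, for 5 of the 7 ratios; points are libraries, the marker shape gives the replicate number and the line is the group mean (n = 3). Acads / Acadl overlaps between the 3 groups, Acadm / Acadl is lower in fetal, and the other 3 ratios are higher in fetal.

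Of the other genes of fatty acid handling in the pathway lists, 45 of 109 names could be tested; many names of the pathway, Hadha and Cpt1b among them, are not paired with a locus in the deposited files and are not analysed here. In fetal against sham 31 of the 45 were called lower and 3 higher, where 23.1% and 22.5% of all tested loci were. Their median log2 difference was -1.30, nearer to 0 than that of the 10 genes. Members and lists were chosen with earlier results of these data known, so this gap cannot be told apart from the choice. In TAC against sham none of the 45 was called by limma, and their median was -0.04.

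Around the members of the cycle itself, every measured gene was called lower in fetal, where 23.1% of all tested loci were. This held for 4 of 4 acyl-CoA dehydrogenases, a count that includes the members Acadl, Acadm and Acads. Acad9, which is also needed to assemble complex I, changed least (75.7 ± 7.79 to 44.9 ± 4.04 rescaled FPKM, log2 -0.74, adjusted p = 0.00245). It held for Echs1, the enoyl-CoA hydratase that works between Acads and Hadh (636 ± 83.0 to 122 ± 15.8, log2 -2.38), beside Hadh and Acaa2. Of auxiliary enzymes 7 of 7 were called lower, most of all the dienoyl-CoA isomerase Ech1 (854, 1114 and 1491 in sham, 68.5, 68.6 and 71.2 in fetal; log2 -4.00), the enoyl-CoA isomerase Dci (log2 -2.98) and methylmalonyl-CoA mutase, Mut (-2.97, with fetal replicate 3 far below replicates 1 and 2, which measured 13.1 and 16.7). The electron transfer partners of Etfa were lower too, Etfb at 799 ± 142 in sham and 245 ± 79.4 in fetal (log2 -1.73) and Etfdh at 393 ± 57.1 and 133 ± 18.1 (-1.55); whether they differ from Etfa in this was not tested.

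Before the cycle the picture was mixed. Of all tested loci 23.1% were called lower and 22.5% higher. Of uptake genes 3 of 4 were called lower: Lpl, the lipase that frees fatty acids from lipoproteins (1277 ± 196 to 57.0 ± 2.93, log2 -4.45), Fabp4 (-2.14) and Got2 (-1.08). Of activating enzymes, the acetyl-CoA synthetases Acss1 (359 ± 107 to 1.90 ± 0.694, log2 -6.95) and Acss2 (-2.14) were called lower with Acsf2 (-1.71), whereas the long-chain acyl-CoA synthetases Acsl3 (10.8 ± 4.74 to 40.6 ± 7.45, log2 1.88) and Acsl4 (1.74) were called higher. In the carnitine list the plasma membrane carnitine transporter Slc22a5 was lower (19.3 ± 1.46 to 4.13 ± 0.441, log2 -1.99) beside Cpt2 and Slc25a20. Cpt1a, an outer-membrane transferase that malonyl-CoA inhibits, was not called: 28.5, 29.2 and 33.0 in sham and 44.0, 29.4 and 34.0 in fetal (log2 0.22, adjusted p = 0.346). Cpt1b, of the same list, could not be measured, so this value does not describe the entry step as a whole. Acsl4 and Acsf2 fall outside the 3 names given per list and Cpt1a was named for its role, both after their values were seen.

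Among the control genes 3 of 4 of malonyl-CoA control were called lower (Mlycd and the AMPK subunits Prkab1 at -1.32 and Prkag1 at -0.86) and 1 higher, the AMPK subunit Prkag2 (30.4 ± 2.85 to 81.6 ± 8.32, log2 1.40). Of transcriptional regulators 4 of 7 were called lower: Rxrg, a partner receptor of the PPARs (128 ± 12.6 to 11.4 ± 2.95, log2 -3.39), Esrra, Klf15 (-1.32) and Pparg (-1.26), the last named after its value was seen. Fuel-switch genes were lower for 5 of 6, among them the ketone-body enzyme Oxct1 (1778 ± 175 to 424 ± 46.4, log2 -2.07) and Ucp3, which was listed at 0 in the 3 fetal libraries and at 8.92 to 21.9 in sham. Peroxisomal oxidation had 3 of 6 lower, among them Ehhadh (-2.02) and Hsd17b4 (-1.12). The shares over all loci were 23.1% lower and 22.5% higher, and whether these short lists differ from them was not tested.

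**Figure D4:**
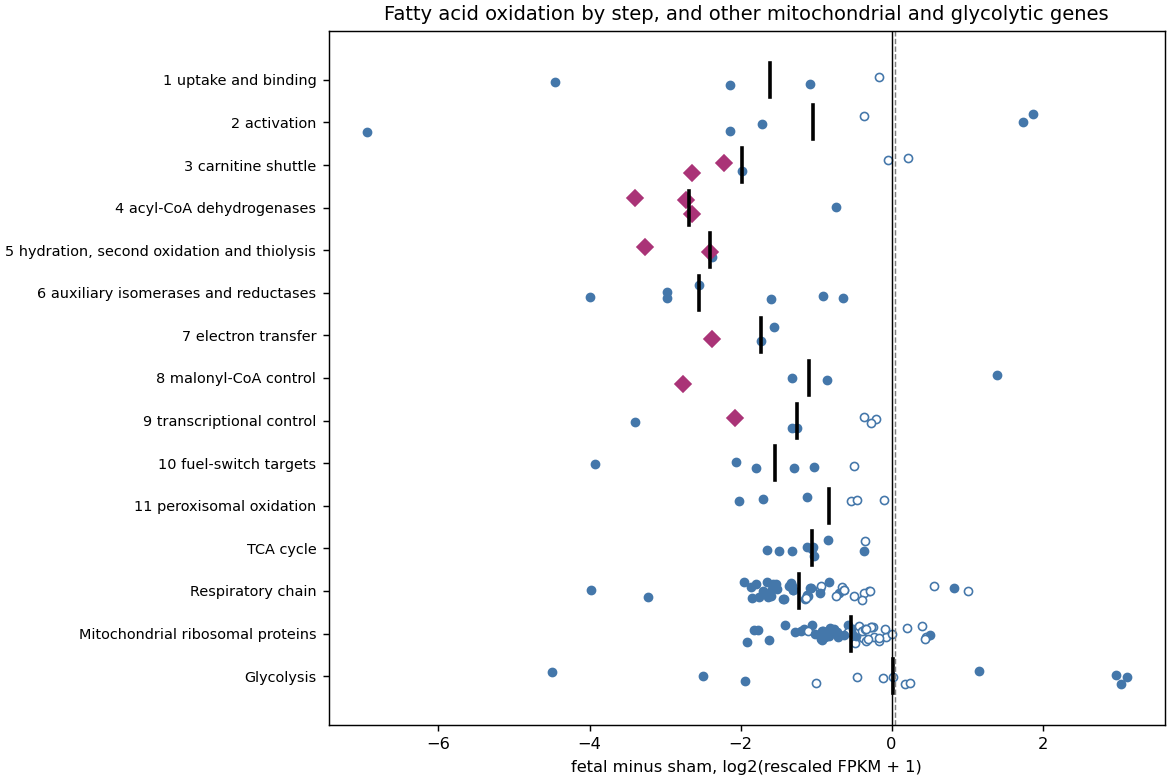
Fetal minus sham in log2(rescaled FPKM + 1) for each measured gene of the pathway lists and of 4 comparison lists. Diamonds are the 10 genes, filled points other genes with adjusted p below 0.05, and open points the rest. Short bars are the list medians, and the dashed line is the median of all loci (0.04). The medians of the cycle itself (acyl-CoA dehydrogenases to auxiliary enzymes) lie furthest below 0. The dehydrogenase list includes the members Acadl, Acadm and Acads, and the next list Hadh and Acaa2. The choice of members therefore enters these medians.

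Of other mitochondrial lists, 3 had medians below 0 in fetal against sham, and the difference between these lists and the 10 genes was not tested. The TCA cycle had 9 of 10 measured genes called lower with a median of -1.05, near that of Mdh2 (-1.04) and Sdhd (-1.06). The respiratory chain had 29 of 46 lower and 1 higher, with a median of -1.22 (Ndufb8, near it, went from 1557 ± 558 to 678 ± 71.4). Mitochondrial ribosomal proteins had 25 of 50 lower and 1 higher, with a median of -0.54 (Mrpl45, near it, -0.51). Each of the 10 fatty acid oxidation genes had a log2 difference further below 0 than these 3 medians. The 10 were chosen with earlier results known, so this gap cannot be told apart from the choice. The 45 other tested genes of the fatty acid lists had a median of -1.30, near that of the respiratory chain. Single genes of the respiratory chain reached as far, to -3.98 for Cox8b, whose sham libraries spread widely (5401 ± 4337 rescaled FPKM). The lowest difference was -1.65 in the TCA cycle and -1.92 in mitochondrial ribosomal proteins, short of the -2.07 of Esrra, the narrowest of the 10. Glycolysis, the route of glucose, had 4 of 13 genes called higher and 3 called lower, shares near the 22.5% and 23.1% of all loci. Its median of 0.01 joined opposite differences, from -4.49 to 3.11. Near the median, Pgk1 measured 630 ± 71.5 in sham and 638 ± 95.6 in fetal, and Ldha 902 ± 57.9 and 832 ± 29.4. No gene of these 4 lists was called between TAC and sham by limma.

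Loci outside the 10 genes were ranked by how closely they followed the mean of the 10 over the 9 libraries, as a description. Among the first with a symbol were Aqp7, a water and glycerol channel (Pearson r = 0.998), Tspan12 (0.998), Apol9a (0.998) and Mettl7a (0.997). Such values mostly reflect that fetal and adult libraries form separate clusters. Aqp7 measured 287 ± 77.7 rescaled FPKM in sham, 196 ± 33.9 in TAC and 0.871 ± 0.119 in fetal (SD, n = 3).

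As a description, the sequence upstream of the starts of the 10 genes was read from RefSeq (build GRCr8, another build than the rn4 of the data). There 8 of the 10 matched by symbol. Acadm, with the widest fetal difference, is shown with Cpt2 of the shuttle, Mlycd, the only gene with an unadjusted p below 0.05 in TAC, and Esrra, with the narrowest. Each line holds the 250 bases before the start, 5′ to 3′ on the strand of the gene: chr2:245542865-245543114 (minus strand), chr5:127910819-127911068 (minus), chr19:64356332-64356581 (plus) and chr1:213543306-213543555 (minus). Capitals mark the GC box GGGCGG, the core bound by Sp1-type factors, on either strand.
Acadm: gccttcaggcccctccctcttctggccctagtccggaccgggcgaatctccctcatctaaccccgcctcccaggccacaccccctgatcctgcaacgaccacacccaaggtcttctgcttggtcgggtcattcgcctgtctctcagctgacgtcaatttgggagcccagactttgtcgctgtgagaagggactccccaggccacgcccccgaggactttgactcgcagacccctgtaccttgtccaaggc
Cpt2: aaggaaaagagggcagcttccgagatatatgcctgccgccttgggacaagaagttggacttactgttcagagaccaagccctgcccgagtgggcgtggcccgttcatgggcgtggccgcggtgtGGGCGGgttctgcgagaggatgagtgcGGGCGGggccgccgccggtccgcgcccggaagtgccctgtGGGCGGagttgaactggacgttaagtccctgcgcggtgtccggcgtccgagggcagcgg
Mlycd: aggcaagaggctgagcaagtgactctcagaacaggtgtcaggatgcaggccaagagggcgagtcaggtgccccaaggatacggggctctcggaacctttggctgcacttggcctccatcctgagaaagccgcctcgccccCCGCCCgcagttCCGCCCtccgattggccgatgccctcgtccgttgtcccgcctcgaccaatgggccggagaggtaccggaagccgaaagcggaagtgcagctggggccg
Esrra: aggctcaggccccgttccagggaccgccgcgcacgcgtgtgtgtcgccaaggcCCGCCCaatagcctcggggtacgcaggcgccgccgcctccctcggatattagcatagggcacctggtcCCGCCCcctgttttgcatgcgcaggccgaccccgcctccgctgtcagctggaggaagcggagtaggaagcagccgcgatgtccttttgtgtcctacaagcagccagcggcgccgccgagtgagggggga

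The estrogen-related receptor element TNAAGGTCA was found on either strand in 0 of the 8 windows, and in 1.04% of 33469 promoters of the same length. The shorter site AGGTCA, which the longer element and the repeat contain, was found in 0 of 8 and in 14.06% of all, and its direct repeat 1 base apart in 0 of 8 and in 0.0508% of all. The GC box was found in 6 of 8 (Acads, Hadh, Cpt2, Slc25a20, Mlycd and Esrra) and in 30.47% of all; it was searched after the windows had been seen. In the lines above Cpt2 holds 3 copies, Mlycd and Esrra 2 each, and Acadm none. The 8 windows had a GC content of 56.4% to 68.8% with a median of 64.6%, where the median of all promoters was 51.2%. They held a median of 16 CpG dinucleotides against 5. Letters in a window of this length are a description of the sequence and no measure of binding.

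How a locus value was made up differed between libraries without following the groups. Acads, Mlycd and Esrra had 1 transcript in every library. Acaa2 had 3 reference transcripts, not all above 0 in every library, the first holding 28.0% (fetal replicate 3) to 65.4% (TAC replicate 2) of the locus. Cpt2 had a further transcript assembled by the authors that held 65.2% in fetal replicate 3, 27.3% and 32.5% in TAC replicates 1 and 2, and 27.2% in sham replicate 2. Etfa had one that held 24.0% in TAC replicate 1, 42.9% in fetal replicate 3, and 44.1% and 36.8% in sham replicates 1 and 2. In fetal replicate 3, assembled transcripts also held 40.05% of Acaa2, 31.8% of Acadm and 11.3% of Hadh. Elsewhere they held 14.8% of Acadl in sham replicate 1 and 26.6% of Slc25a20 in TAC replicate 1. With reference transcripts alone the 10 genes were still called lower in fetal against sham, with a median of -2.47, whereas Etfa in TAC against sham changed from -0.27 to 0.08.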

How the data were processed

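Total RNA of 9 rat heart libraries was sequenced on the Illumina GAIIx after a TruSeq RNA preparation, per the labels' protocols. Per the submitters' processing notes, reads were processed with TopHat 1.3.1, Cufflinks 1.0.3 and Cuffdiff on build rn4. The deposited FPKM values of the authors carry a further constant per library (medians above 0 from 2734000 to 45990000). They were therefore rescaled by the median of ratios over 13167 loci above 0 in every library, then to a mean total of 1000000.

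Gene names differ between the authors' per-library assemblies. Transcripts were joined through 39492 reference transcripts into 29328 loci, of which 24676 had at least 200 nt. The members' gene name was found in 33 of 90 values; elsewhere transcripts of the locus were summed, and named values equalled that sum within 0.00046%.

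Loci that reached 1 in 3 or more libraries were fitted with limma 3.58.1 (trend, R 4.3.3, 9 libraries, 6 residual degrees of freedom) on log2(rescaled FPKM + 1), after the code was tested on simulated data. Deviations from the group means correlated at 0.153 to 0.515 between same-numbered libraries of different groups (from the data). Between other-numbered libraries they correlated at -0.404 to 0.281, so the ranges overlapped. Replicate 1 stood apart, at 0.472 to 0.515 with replicate 1 of other groups and at -0.404 to -0.207 with their replicates 2 and 3. A replicate block was an alternative. Others were pseudocount, filter, scaling, left-out libraries, trend and reference transcripts alone. Members and lists were chosen with earlier results of these data known. Named are the members, the 3 largest fetal differences per pathway list, and the genes nearest the median of the other lists; some genes that this rule names are not reported here.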

Additional observations from a re-analysis of the deposited data

How the results depend on the processing

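In 19 alternatives per comparison, 10, 0 and 10 of the 10 genes were called lower in fetal against sham, TAC against sham and fetal against TAC, as in the values reported. The replicate block changed no call of the 10 genes and gave 6722, 2 and 6766 called loci against 6456, 2 and 6469. From reference transcripts only, 2055 loci were called in fetal against sham, 2137 in fetal against TAC and 41 in TAC against sham. The last comparison had 11 called loci in replicates 2 and 3 alone, and 2 to 5 when 1 library was left out; it was 5 without fetal replicate 1, and 4 without either of TAC replicates 1 and 2 or without sham replicate 2. The cause of these moves was not tested.

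Some small estimates changed sign. In TAC against sham, Acads ran from -0.0760 to 0.0725 with 1 library left out (positive without TAC replicate 3 or sham replicate 2), and Etfa was 0.0758 from reference transcripts only. Among log2 ratios of that comparison, leaving out 1 library gave -0.0827 to 0.0660 for Cpt2 to Slc25a20, -0.180 to 0.0484 for Esrra to Acadm and -0.126 to 0.0494 for Etfa to Acadm. Reference transcripts only gave -0.0311 for the first and 0.317 for the last. Replicates 2 and 3 alone gave 0.0150 for the second and 0.0495 for the last. Acads to Acadl in fetal against sham was -0.0156 from reference transcripts only. Depth was lowest in TAC libraries, and Esrra had the fewest fragments there.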
